A study of Mus musculus with 15 samples.

Results

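The regions described here are the 2054 open-chromatin regions of mouse chromosome 13 in a table of 43020 regions, selected by the chromosome in each region's name (build mm9). The chromosome was singled out with the difference between metastasis and primary tumour lines already known, so that difference is described below without a test. The 15 libraries come from colon cancer organoids, cultures of tumour cells grown in 3 dimensions, all labelled with the genotype AKP and the recipient mice C57Bl6. In the study, organoids from liver metastases and from primary tumours were transplanted into the colon repeatedly and new lines were derived in each round. Liver metastases gave the groups Met1, Met2 and Met3, numbered by round. Primary tumours gave Primary2 in round 2 and Primary3 in round 3. Each group holds 3 lines, and round 1 primary tumours were not analysed here. The labels do not say which line descended from which, and the p-values below therefore cover the spread of these lines alone.

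ATAC-seq uses a transposase that inserts sequencing adapters where DNA is not covered by nucleosomes or bound proteins, so read counts in a region rise with its openness and also with the number of DNA copies a cell carries. The number of copies and the openness of each copy cannot be told apart in these counts. Mouse chromosome 13 carries the main cluster of replication-dependent histone genes, the prolactin gene family and single genes such as Gli3, a Hedgehog pathway transcription factor, Mef2c, a transcription factor of muscle and neurons, and Pik3r1, a regulatory subunit of PI 3-kinase. Mouse chromosomes have their centromere at one end, and positions are counted from that end. No gene annotation of mm9 was used here, so regions are named by their peak name and their mm9 coordinates, printed as the table gives them.

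The chromosome 13 regions ran from position 3035998 to position 120261613, at 17.5 regions per Mb. Their median width was 704 bp, against 752 bp on the other autosomes, and 10.8% were at least 1500 bp wide, against 12.6%. The widest stretch without a region measured 2309605 bp, from 86186671 to 88496276. A test was possible for 1879 of the 2054 regions, and 175 had too few counts. Library totals ran from 285633 to 5916109 counts. Primary3 replicate 2 (285633 counts) and Met1 replicate 1 (790233) were the shallowest. In Primary3 replicate 2 the median chromosome 13 region held 2 counts and 583 of the 2054 regions held 0, so its values are the least precise. Met2 replicate 1 stood apart from its group over the tested chromosome 13 regions. Its log2 CPM values (CPM is the count of a region scaled to the library's size) correlated with Met2 replicates 2 and 3 at r = 0.711 and 0.645, whereas these correlated with each other at 0.823, while its correlations with the other groups were 0.61 to 0.708 for Met1, 0.614 to 0.683 for Met3 and 0.506 to 0.645 for the primary lines. The shallowest libraries stood apart from their groups as well. Met1 replicate 1 correlated with its group at 0.692 and 0.695, whereas replicates 2 and 3 correlated with each other at 0.881. Primary3 replicate 2 correlated with its group at 0.679 and 0.683, whereas replicates 1 and 3 correlated at 0.91. These are correlations across regions of pairs of libraries, and regions are not independent replicates.

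Chromosome 13 as a whole had more signal in all 9 metastasis lines than in all 6 primary lines. Its regions took 4.28% ± 0.14 of the autosomal counts in Met1, 4.17% ± 0.051 in Met2 and 4.19% ± 0.17 in Met3, against 3.504% ± 0.058 in Primary2 and 3.56% ± 0.12 in Primary3 (SD, n = 3 each). The metastasis lines ran from 4.04% to 4.43% and the primary lines from 3.43% to 3.68%. The groups did not overlap, and the lines of each kind lay close together whatever their round.

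The same was seen in the chromosome level of each line. This level is the median, over the tested chromosome 13 regions, of the line's log2 CPM minus the mean of the 15 lines, after subtraction of the line's own median over all tested regions. The Met1 lines were at 0.05, 0.13 and 0.18, the Met2 lines at 0.09, 0.11 and 0.09 and the Met3 lines at 0.04, 0.10 and 0.14. The Primary2 lines were at -0.20, -0.14 and -0.15 and the Primary3 lines at -0.10, -0.17 and -0.09. The lowest metastasis line, Met3 replicate 1, was therefore above the highest primary line, Primary3 replicate 3. In rounds 2 and 3 together the metastasis lines were 0.24 higher on the log2 scale (0.22 without the 2 shallowest libraries), and the SD among lines of a group was 0.0444. Among 20 chromosomes this difference (0.2351) was the second highest after chromosome 1 (0.2448) and the fourth by size, since chromosomes 18 (-0.4168) and 8 (-0.3191) were lower in metastasis lines by more. On 12 of the 20 chromosomes the metastasis and primary lines overlapped. All 9 metastasis lines lay above all 6 primary lines on chromosomes 1, 9 and 13, and below them on chromosomes 2, 8, 11, 17 and 18.

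**Figure D1:**
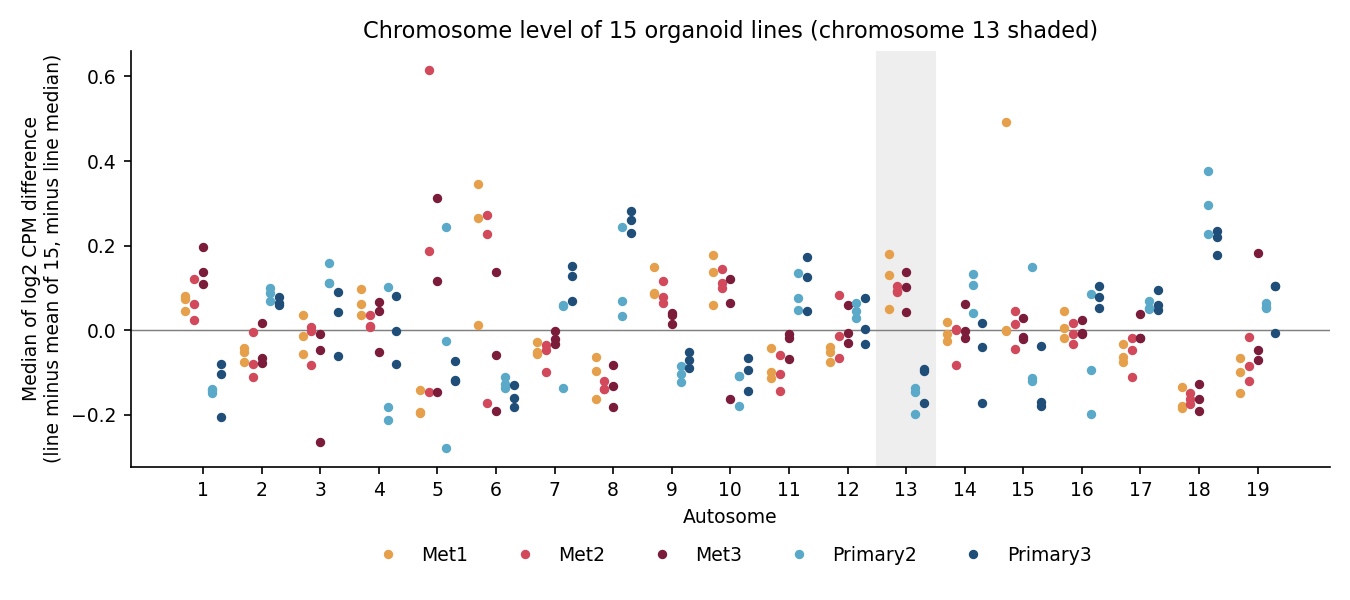
Chromosome level of each of the 15 lines on the 19 autosomes (y axis: median log2 difference from the mean of the 15 lines, minus the line's median over all tested regions; x axis: autosome, chromosome 13 shaded; each point is 1 line, coloured by group). On chromosome 13 the 9 metastasis lines sit between 0.04 and 0.18 and the 6 primary lines between -0.20 and -0.09.

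Chromosome 13 did not detectably change its level along the rounds. Met1 lines differed from the later metastasis lines by 0.03 (two-sided exact permutation p = 0.4405, adjusted over 20 chromosomes 0.7313, 84 assignments, smallest possible p 0.0119). The difference between metastasis and primary lines was 0.04 smaller in round 3 than in round 2, less than the spread among lines (exact permutation p = 0.34, adjusted 0.6706, 400 assignments, smallest possible 0.005). Met3 lines differed from Met2 lines by -0.001 (exact permutation p = 0.9, adjusted 1), and Primary3 lines from Primary2 lines by 0.04 (exact permutation p = 0.3, adjusted 0.6). With 3 lines against 3 the smallest possible p is 0.1, so the last 2 comparisons could not pass 0.05.

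Along the chromosome, nearly every stretch followed the same direction, but by very different amounts. The chromosome was divided into 25 windows of 5 Mb, of which 22 held at least 20 tested regions. In rounds 2 and 3 together, 21 of these 22 windows had a higher mean level in metastasis lines, against 237 of 425 windows on the other autosomes. Other chromosomes higher in metastasis lines were alike, with 32 of 34 windows on chromosome 1 and 28 of 29 on chromosome 5. Chromosomes 6, 10 and 9 had 27 of 28, 23 of 25 and 18 of 23. On chromosome 13 the window differences had a median of 0.25 and ran from -0.08 to 0.92 on the log2 scale. Their SD over windows was 0.24, the 12th smallest of the 19 autosomes, so chromosome 13 was neither among the most even nor among the most uneven chromosomes. In 7 of the 22 windows all 6 later metastasis lines lay above all 6 primary lines, against 11.06% of windows on the other autosomes. This held in 16 of 34 windows on chromosome 1 and 9 of 23 on chromosome 9. On chromosomes 5, 6 and 10 it held in 2 of 29, 4 of 28 and 7 of 25.

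Most windows had the same direction in both rounds, but some changed sign. At 45 to 50 Mb the difference was 0.36 in round 2 and -0.16 in round 3. Met2 lines were higher than Primary2 lines in 20 of the 22 windows, and Met3 lines were higher than Primary3 lines in 18. Over the 22 windows the differences of the 2 rounds correlated at Pearson's r = 0.698 (Spearman's rho 0.654). The same correlation on the other autosomes ran from 0.241 to 0.945 with a median of 0.748, so the likeness of the 2 rounds along chromosome 13 was within that range. Neighbouring windows share libraries and depth, so these values are descriptions. Windows with more tested regions had a somewhat smaller difference (rho -0.262), and the other autosomes had a similar value (-0.309 after each chromosome's median was subtracted).

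**Figure D2:**
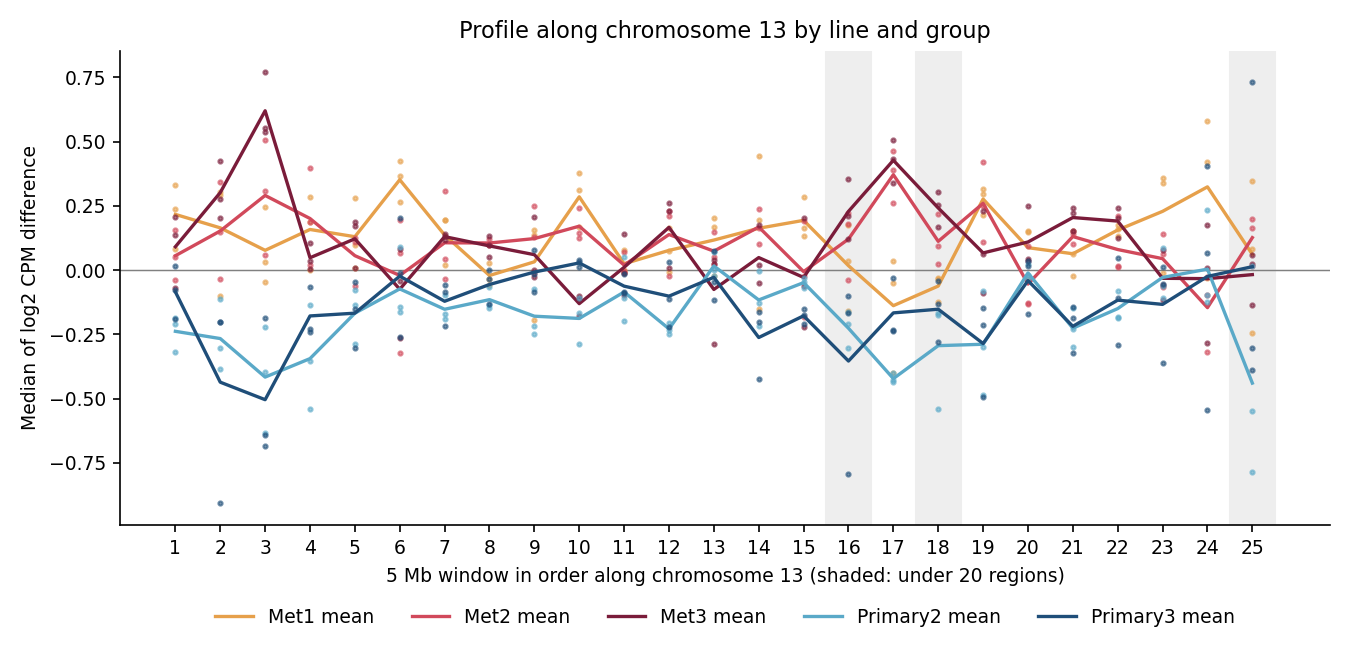
Level of the 25 windows of 5 Mb in order along chromosome 13 (x axis: window number; y axis: median log2 difference from the mean of the 15 lines; points are lines and connected lines are group means; windows under 20 tested regions are shaded). Met2 and Met3 are highest above the primary groups in windows 3 and 17, and the group means lie closest together in window 11.

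The largest difference lay at 10 to 15 Mb, the third window, at 0.92 on the log2 scale over 48 tested regions. There the Met3 lines were at 0.77, 0.55 and 0.54 and the Met2 lines at 0.06, 0.31 and 0.51. The Primary2 lines were at -0.39, -0.22 and -0.63 and the Primary3 lines at -0.64, -0.68 and -0.19. The Met1 lines, at 0.03, -0.05 and 0.24, lay above all primary lines and below all Met3 lines. No line of the primary groups reached the lowest metastasis line. Of the 48 regions, 45 had a positive fold change, and the median over the 48 was 1.05.

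The window at 80 to 85 Mb came next, at 0.69 over 44 regions. The 3 Met2 lines were at 0.46, 0.26 and 0.39 and the 3 Met3 lines at 0.43, 0.51 and 0.34. The Primary2 lines were at -0.40, -0.44 and -0.43, and the Primary3 lines at -0.23, -0.03 and -0.24. The Met1 lines here were at 0.03, -0.05 and -0.40, with replicates 2 and 3 within the range of the primary lines and replicate 1 just above it. This window therefore separated the later metastasis lines from all other lines.

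At 5 to 10 Mb the difference was 0.58 over 97 regions, of which 79 had a positive fold change. Met3 lines were at 0.28, 0.20 and 0.42, and Met2 lines at -0.03, 0.15 and 0.34. The primary lines lay between -0.38 and -0.11, apart from the shallow Primary3 replicate 2 at -0.91. Without that line the difference at 5 to 10 Mb was 0.46, at 10 to 15 Mb 0.87 and at 80 to 85 Mb 0.73, and 20 of the 22 windows were higher in metastasis lines.

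In some windows the difference was absent or slightly turned. The window at 115 to 120 Mb, the lowest of the 22, had a difference of -0.08 over 46 regions (-0.21 without Primary3 replicate 2), and its lines overlapped widely, with Primary3 lines at 0.07, -0.54 and 0.41 and Met2 lines at -0.32, -0.03 and -0.09. Met1 lines there were at -0.03, 0.58 and 0.42. This stretch was mixed at a finer scale. The 2 Mb from 116 to 118 Mb were higher in metastasis lines by 1.07, over only 12 regions. Those from 114 to 116 Mb, partly in this window, had a difference of -0.40 over 43 regions. The differences at 25 to 30 Mb and at 60 to 65 Mb were 0.0007 and 0.0052, so these windows showed next to no gap between the kinds of line. Windows other than the highest and the lowest of the 5 Mb windows were singled out here and below after their values were seen.

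**Figure D3:**
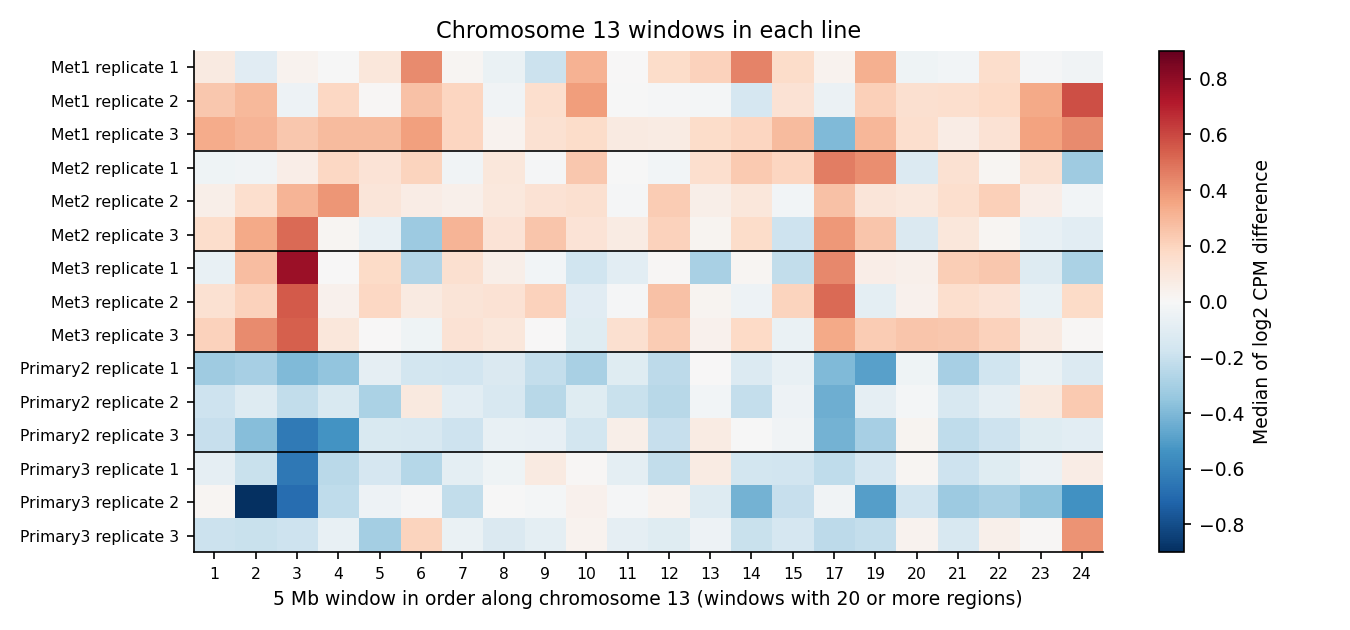
Level of the 22 windows with at least 20 tested regions (columns, numbered along chromosome 13) in each of the 15 lines (rows); colour gives the median log2 difference from the mean of the 15 lines. The primary rows are mostly blue and the metastasis rows mostly red; window 3 is reddest in Met3 replicate 1 (0.77) and window 2 bluest in Primary3 replicate 2 (-0.91).

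Line by line, the profile was not the same within a group. The number of windows above 0, of 22, was 14, 15 and 21 in the Met1 lines, 14, 19 and 16 in Met2 and 13, 17 and 19 in Met3. It was 1, 3 and 3 in the Primary2 lines and 5, 3 and 6 in Primary3. All 3 Met3 lines and Met2 replicate 3 had their highest window at 10 to 15 Mb, whereas Met2 replicate 1 had it at 80 to 85 Mb and Met2 replicate 2 at 15 to 20 Mb. Met1 replicates 2 and 3 peaked at 115 to 120 Mb instead. The SD over windows ran from 0.11 in Met2 replicate 2 to 0.26 in the shallow Primary3 replicate 2.

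Finer windows of 2 Mb placed the differences more closely. Of 42 such windows with at least 20 tested regions, 35 were higher in metastasis lines. The highest was 18 to 20 Mb (1.15 over 24 regions), where Met3 lines were at 0.96, 0.77 and 0.54, Met2 lines at 0.24, 0.49 and 0.47, and all 6 primary lines between -0.91 and -0.38. The window at 12 to 14 Mb followed (0.85 over 33 regions) and was uneven within Met2, with replicate 1 at -0.38 and replicate 3 at 1.02. The window at 4 to 6 Mb stood at 0.79 over 53 regions.

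Other 2 Mb windows went the opposite way. At 114 to 116 Mb the difference was -0.40 over 43 regions, and at 28 to 30 Mb it was -0.32 over 40 regions. In both, the mean of the Met1 lines was above that of either primary group. At 28 to 30 Mb the Met1 lines were at 0.33, 0.22 and 0.41, while Met2 ran from 0.31 in replicate 1 to -0.96 in replicate 3 and Met3 from -0.47 to -0.09. The Met2 lines thus differed among themselves by more than the groups did.

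On average, the round 1 metastasis lines lay nearer the later metastasis lines than the primary lines in most windows of chromosome 13. Met1 lines were above the mean of the primary lines in 22 of 22 windows, and in 12 of them all 3 lay above all 6 primary lines, against 15.53% of windows on the other autosomes. On chromosomes 1, 6 and 9 all 3 lay above in 16 of 34, 14 of 28 and 13 of 23 windows. On chromosomes 10 and 5 they did so in 12 of 25 and 0 of 29. On chromosome 13 the mean of the Met1 lines was nearer that of the later metastasis lines in 19 of the 22 windows and above it in 15. These counts were not made on the other autosomes. Single regions differed by direction. Of the 331 called higher in rounds 2 and 3 (edgeR adjusted p under 0.05), Met1 was nearer the later metastasis lines in 190. That is 57.4%, beside 50.4% on the other autosomes. Of the 118 called lower it was nearer in 36 (30.5%, beside 55.5%). The comparison of Met1 with primary lines uses the same primary lines as that of rounds 2 and 3 and crosses rounds, so no test is given for it.

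Met1 and Met3 lines, which share no library, were tested on counts summed over each 5 Mb window with edgeR's quasi-likelihood test. Of 447 autosomal windows 53 differed (11.9%), and on chromosome 13 they were 3 of 22. The window at 80 to 85 Mb rose from Met1 to Met3 by 0.44 ± 0.098 (log2, SE; edgeR adjusted p = 0.01355). The windows at 45 to 50 Mb and 110 to 115 Mb fell, by 0.42 ± 0.077 (edgeR adjusted p = 0.004721) and by 0.35 ± 0.10 (edgeR adjusted p = 0.03794). The share of windows called was thus near that of the other chromosomes.

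The call at 45 to 50 Mb was kept whichever Met1 or Met3 line was left out. The call at 80 to 85 Mb was lost without Met1 replicate 3 (0.33 on the log2 scale, edgeR adjusted p = 0.06751) or Met3 replicate 1 (0.42, 0.0583). The call at 110 to 115 Mb was lost without Met1 replicate 2 (edgeR adjusted p = 0.07816), Met1 replicate 3 (0.1049), Met3 replicate 1 (0.1426) or Met3 replicate 2 (0.06633), with differences of -0.36 to -0.30.

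The window at 45 to 50 Mb holds 105 tested regions and showed the clearest change over rounds. Its level was 0.31, 0.38 and 0.17 in the Met1 lines, 0.24, 0.15 and 0.12 in the Met2 lines and -0.18, -0.10 and -0.11 in the Met3 lines. The Primary2 lines were at -0.29, -0.11 and -0.17 and the Primary3 lines at 0.01, 0.04 and 0.03. Metastasis lines were thus above primary lines in round 2 and below them in round 3. For the summed counts the difference in round 3 minus that in round 2 was -0.52 ± 0.11 (log2, SE; edgeR adjusted p = 0.04084), 1 of 4 windows called in 447 (0.895%). Met3 against Met2 gave -0.34 ± 0.077 (edgeR adjusted p = 0.04313), 1 of 5 windows called (1.12%). Within the window the change was uneven. In windows of 2 Mb, Met3 minus Met1 was -0.79 at 46 to 48 Mb (32 regions) and -0.09 at 48 to 50 Mb (55 regions).

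Both calls at 45 to 50 Mb were lost when some lines were left out, though the direction was kept. With 1 line left out the round difference ran from -0.56 to -0.43 and its edgeR adjusted p from 0.02518 to 0.1765, and it was called in 3 of 12 such fits, those without Met2 replicate 2, Met2 replicate 3 or Met3 replicate 3. For Met3 against Met2 the difference ran from -0.39 to -0.26, and the call was lost without Met2 replicate 1 (edgeR adjusted p = 0.3473), Met3 replicate 1 (0.2175) or Met3 replicate 2 (0.1794). No chromosome 13 window passed in Met2 against Met1, where 0.895% of all windows did and where 3 chromosome 13 windows had an unadjusted p under 0.05. The nearest was 80 to 85 Mb, at 0.41 higher in Met2 (edgeR adjusted p = 0.0659). None passed in Primary3 against Primary2 either (0.447% of all windows), where 1 had an unadjusted p under 0.05.

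Region by region, the shift was broad. In rounds 2 and 3 together the median log2 fold change of the 1879 tested regions was 0.28 (metastasis over primary), against 0.03 on the other autosomes, and 67.3% of the regions had a positive value, against 51.9%. The share was 68.1% on chromosome 1, 69.3% on chromosome 5, 65.7% on chromosome 6 and 63.6% on chromosome 10. The middle and the upper part of the chromosome 13 distribution moved more than its lower tail. The 10th percentile was -0.80 against -0.94, the 25th -0.19 against -0.40, the 75th 0.74 against 0.46 and the 90th 1.40 against 1.07.

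**Figure D4:**
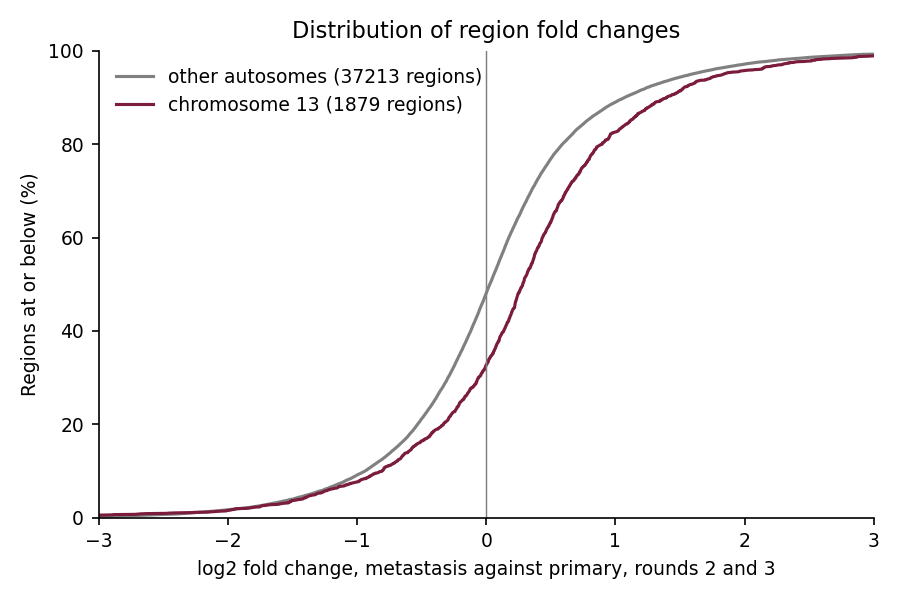
Cumulative share of regions (y axis, %) at or below each log2 fold change of metastasis over primary lines in rounds 2 and 3 (x axis), for the 1879 tested regions of chromosome 13 and the 37213 of the other autosomes. The chromosome 13 curve lies to the right through its middle and upper part, with a median of 0.28 against 0.03, and the 2 curves meet at the lower end.

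Called regions (edgeR adjusted p under 0.05 over all 39952 tested regions) leaned the same way, which the choice of the chromosome already fixed. There were 331 higher and 118 lower in metastasis lines, 17.6% and 6.28% of the tested chromosome 13 regions, beside 11.2% and 8.98% of all tested regions. Of these, 80 were higher and 29 lower by at least 4-fold, 4.26% and 1.54% of the tested chromosome 13 regions, beside 2.89% and 1.69% of all tested regions. The metastasis lines of each round did not overlap the primary lines of that round in 161 of the higher regions (48.6%, beside 46.1% of all regions called higher) and in 55 of the lower ones (46.6%, beside 49.1%). After each library's chromosome medians were removed, the split was 206 higher to 173 lower.

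Round 2 alone called 118 chromosome 13 regions higher and 33 lower, 6.28% and 1.76% of those tested, beside 3.44% and 2.77% of all tested regions. Round 3 alone called 149 higher and 64 lower, 7.93% and 3.41%, beside 5.64% and 4.52% of all. Both totals depended on the lines kept, as did those of all tested regions. Round 2's 151 calls became 62, 72 and 67 without Primary2 replicates 1, 2 and 3. In the same fits the 2480 calls over all regions became 963, 1103 and 1166. Round 3's 213 became 86 and 130 without Met3 replicates 1 and 2, and 80 and 102 without Primary3 replicates 1 and 3. The 4059 calls over all regions became 1831, 2644, 1483 and 1950 in those fits.

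The difference was seen in weak and in strong regions. Over quartiles of mean signal, from weakest to strongest, the median log2 difference on chromosome 13 was 0.39, 0.24, 0.25 and 0.27, against 0.17, 0.02, -0.05 and 0.02 on the other autosomes. By width the chromosome 13 medians went from 0.38 in the narrowest quartile to 0.19 in the widest, against 0.14 and -0.02 on the other autosomes. The distance between chromosome 13 and the other autosomes was between 0.21 and 0.30 in each of the 4 quartiles of signal and of width.

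Single regions went far beyond the shift of the chromosome. Those named here had the largest fold changes of the called regions whose signal reached the median of all tested regions and whose metastasis and primary lines did not overlap within a round. Their values for rounds 2 and 3 are descriptions with no test. The region with the largest increase, peak_24254 (chromosome 13, 48493795 to 48494629), had 45.8, 39.5 and 74.1 CPM in the Met2 lines and 50.4, 48.8 and 53.1 in Met3. It had 1.74, 7.66 and 8.07 CPM in the Primary2 lines and 4.196, 6.37 and 9.29 in Primary3, a log2 fold change of 3.03 ± 0.36 (SE). The Met1 lines, at 16.98, 37.1 and 9.85 CPM, lay between.

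At peak_22937 (6507625 to 6508426) the Met2 lines had 30.6, 48.4 and 47.5 CPM and the Met3 lines 51.6, 45.4 and 37.6. The Primary2 lines had 6.37, 7.66 and 9.68 CPM and the Primary3 lines 4.55, 0 and 8.08, where the 0 belongs to the shallow replicate 2. Its log2 fold change was 2.67 ± 0.29. Here the Met1 lines (27.2, 43.1 and 28.3 CPM) were all above every primary line and partly within the range of the later ones.

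At peak_25479 (83869105 to 83871069) the round 1 lines were on the other side. The Met2 lines had 39.9, 46.2 and 58.7 CPM and the Met3 lines 57.1, 57.2 and 44.7, against 5.79, 6.02 and 11.3 in Primary2 and 25.5, 19.1 and 13.2 in Primary3. The Met1 lines, at 15.9, 5.71 and 8.35 CPM, were as low as the primary lines. From Met1 to Met3 it rose by 2.55 ± 0.39 on the log2 scale (edgeR adjusted p = 0.0002939) and from Met1 to Met2 by 2.41 (0.001162). A fit of Met1 and Met2 alone called no chromosome 13 region higher, this one included. The other regions of this list were peak_24293 (log2 fold change 2.30), peak_23227 (2.25) and peak_23537 (2.15).

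Other regions were lower in metastasis lines. Of the regions named, the largest decrease was at peak_23503 (28849669 to 28851222), with 5.31, 4.04 and 2.80 CPM in the Met2 lines and 3.04, 3.82 and 8.42 in Met3. The Primary2 lines had 27.8, 48.1 and 27.4 CPM and the Primary3 lines 49.3, 44.6 and 40.6, a log2 fold change of -3.12 ± 0.34. The Met1 lines (13.6, 16.2 and 40.0 CPM) reached the primary range in replicate 3. Its neighbour peak_23502 ends 18.3 kb before it, with no tested region between, and was lower too (log2 fold change -1.60). Both lie in the 2 Mb window at 28 to 30 Mb described above. That window also holds peak_23537 (29829720 to 29830502), one of the regions higher in metastasis lines (log2 fold change 2.15).

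At peak_25884 (99449208 to 99450012) the metastasis lines of all 3 rounds were low. The Met1 lines had 9.06, 8.88 and 14.02 CPM, the Met2 lines 5.31, 3.59 and 8.39 and the Met3 lines 3.65, 6.49 and 5.18. The Primary2 lines had 28.4, 45.4 and 54.0 CPM and the Primary3 lines 46.2, 31.9 and 53.7, and the log2 fold change was -3.01 ± 0.30.

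At peak_26267 (112756278 to 112758165) the Met1 lines were high instead, at 23.8, 50.1 and 59.1 CPM. The Met2 lines had 22.6, 11.7 and 8.39 CPM and the Met3 lines 3.04, 4.196 and 9.07, against 68.3, 56.9 and 44.4 in Primary2 and 58.4, 44.6 and 56.2 in Primary3. The log2 fold change between metastasis and primary lines was -2.68 ± 0.29. From Met1 to Met3 it fell by 3.10 ± 0.43 (edgeR adjusted p = 0.0001202). The remaining lower regions were peak_25793 (-2.01) and peak_23701 (-1.53).

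**Figure D5:**
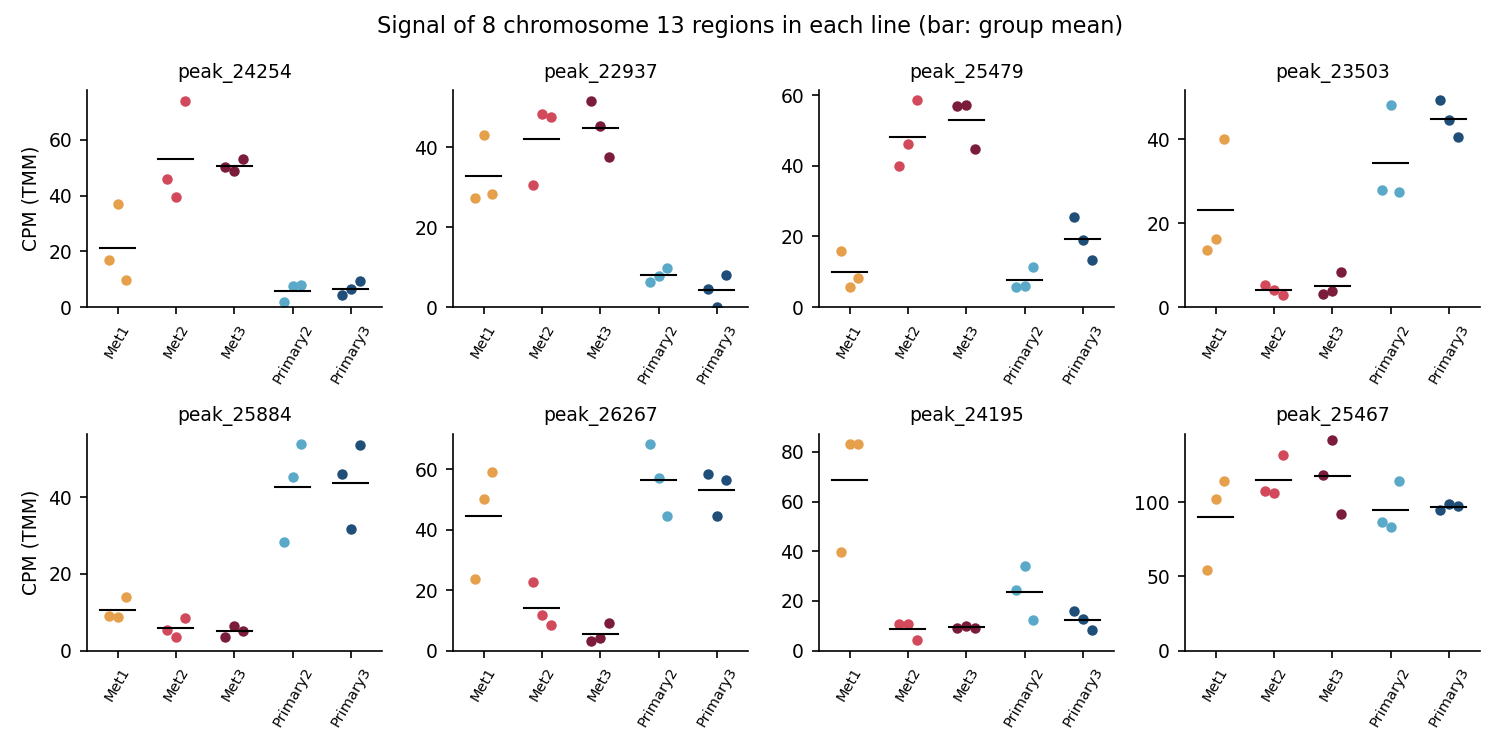
CPM (y axis, from 0) of 8 chromosome 13 regions in each line, by group (x axis); points are lines and bars are group means. In peak_25884 all metastasis groups are low, whereas in peak_26267 and peak_24195 the Met1 lines are high and Met2 and Met3 are low; peak_25467 shows a region that moved with the chromosome's median.

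Between round 1 and round 3 metastasis lines, chromosome 13 regions changed in both directions. Of 1879 regions 105 rose and 87 fell from Met1 to Met3, 5.59% and 4.63%, against 5.98% and 3.56% of all tested regions. The Met1 and Met3 lines did not overlap in 101 of the 105 (96.2%, beside 98.5% of all regions that rose) and 84 of the 87 (96.6%, beside 94.7% of all that fell). The split depended on scaling: total counts gave 68 higher and 106 lower, a scaling that moves the median of all regions from -0.04 to -0.17. Of 192 calls, 93 were left without Met1 replicate 2, 77 without Met1 replicate 3, and 80, 97 and 106 when Met3 replicate 1, 2 or 3 was left out. In the same fits the 3813 calls over all regions became 2025, 1940, 1852, 2254 and 2516. The falls gathered at 45 to 50 Mb, where 15 of 105 regions fell and 0 rose. The rises were most numerous at 100 to 105 Mb, where 12 of 93 rose and 3 fell.

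Among the regions that fell most was peak_24195 (46363063 to 46364902), in the window at 45 to 50 Mb. It had 39.6, 83.1 and 83.2 CPM in the Met1 lines, against 9.11, 9.92 and 9.07 in Met3, a fall of 2.88 ± 0.43 on the log2 scale (edgeR adjusted p = 0.0002154). The Met2 lines were equally low, at 10.6, 10.8 and 4.19 CPM, and the primary lines ran from 8.43 to 33.9. The high level was thus seen in the Met1 lines and in no other group.

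Some falls passed through a mixed round 2. At peak_24248 (48211113 to 48211971) the Met1 lines had 27.2, 121.8 and 94.3 CPM and the Met3 lines 3.65, 9.16 and 11.7, a fall of 3.34 ± 0.72 (edgeR adjusted p = 0.005937). Met2 replicate 1 stayed at 70.4 CPM while replicates 2 and 3 were at 19.7 and 9.09. The same held at peak_25562 (93363918 to 93365922), which fell by 2.92 ± 0.69 (edgeR adjusted p = 0.009284; 0.0584 without Met3 replicate 2) and where Met2 replicate 1 had 94.97 CPM against 10.3 and 9.79 in the other two.

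Rises showed the same split of the Met2 lines. At peak_25973 (101168287 to 101169246) the Met1 lines had 19.3, 22.8 and 18.8 CPM and the Met3 lines 151.2, 98.0 and 91.3, a rise of 2.47 ± 0.53 (edgeR adjusted p = 0.005111). Met2 replicate 1 had 5.98 CPM there, and replicates 2 and 3 had 104.9 and 96.5. Its neighbour peak_25978, 50.2 kb further on, rose by 2.40 ± 0.64 (edgeR adjusted p = 0.02035; up to 0.1316 when 1 line was left out), and Met2 replicate 1 was again the lowest Met2 line, at 2.66 CPM against 30.0 and 54.5. By contrast, at peak_25454 (81458189 to 81459404) all 3 Met2 lines were high (29.9, 20.6 and 17.5 CPM). Met1 lines had 9.06, 3.49 and 2.39 CPM there and Met3 lines 24.3, 31.3 and 27.8, a rise of 2.73 ± 0.50 (edgeR adjusted p = 0.001364).

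From Met1 to Met2, 35 regions rose and 20 fell, 1.86% and 1.06%, against 2.64% and 0.909% of all tested regions. Total counts gave 22 and 21. Leaving out Met2 replicate 1 gave 114 calls in place of 55, and leaving out Met2 replicate 3 gave 23. Leaving out Met1 replicate 2 or 3 gave 22 or 17. A fit of Met1 and Met2 alone called 1 region. Over all regions the 1417 calls became 2475, 727, 561 and 475 with the same lines left out. The fit of Met1 and Met2 alone gave 58 over all regions. No region of chromosome 13, and 0% of all regions, passed in the test of the difference between rounds, in Met3 against Met2 or in Primary3 against Primary2 (edgeR adjusted p). At an unadjusted p under 0.05 there were 134, 145 and 128 chromosome 13 regions, and DESeq2 called 1, 3 and 3.

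The strongest regions of the chromosome moved little beside these. peak_24757 (55611810 to 55613147), with the highest mean CPM, ran from 114.6 to 212.7 CPM over the 15 lines, with metastasis and primary lines overlapping and a log2 fold change of -0.23 ± 0.14. At peak_25089 (64253533 to 64255567) the log2 fold change was 0.39 ± 0.13. This region was called, though not in every fit with 1 line left out. The largest change of the 3 was at peak_24077 (42372048 to 42373907), also called, with a log2 fold change of 0.96 ± 0.17. It had 140.8, 231.4 and 177.5 CPM in the Met2 lines and 266.1, 241.5 and 229.9 in Met3. The Met1 lines had 72.5, 106.3 and 106.5 CPM and the primary lines 76.6 to 154.9. It rose from Met1 to Met3 by 1.35 ± 0.24 (edgeR adjusted p = 0.0009024).

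A region typical of the chromosome's shift was peak_25467 (81849844 to 81851040). Its CPM was 107.6, 105.8 and 131.4 in the Met2 lines and 118.4, 141.5 and 91.9 in the Met3 lines, against 86.3, 83.2 and 114.5 in Primary2 and 94.4, 98.8 and 97.3 in Primary3. Its log2 fold change was 0.28 ± 0.17, near the chromosome's median, and its metastasis and primary lines overlapped. The other typical region, peak_25734 (97311360 to 97313609), also had a log2 fold change of 0.28. There the Met2 lines (73.1 to 79.0 CPM) lay above the Primary2 lines (48.7 to 67.3), while the Met3 lines (68.0 to 83.2) overlapped the Primary3 lines (70.1 to 71.0).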

How the data were processed

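ATAC-seq libraries of 15 organoid lines were read from 1 deposited table of counts per region. The values are whole-number read counts that the authors deposited without normalization, per the file headers and the values themselves, in 1 region set named for all samples. Build mm9 and the tools Bowtie, MACS2, bedtools, Picard and SAMtools are named in the submitters' processing notes, without versions or roles. Read shifting and removal of duplicates are not given in the sources used here, and PCR duplicates would inflate counts.

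edgeR 4.0.16 (R 4.3.3) filtered regions with filterByExpr (minimum count 10, minimum total 15), which left 39952 of 43020 (92.9%), scaled by TMM and fitted all 15 libraries by quasi-likelihood with robust estimates. P-values were adjusted (Benjamini-Hochberg) over all tested regions and called under 0.05. Log2 CPM used a prior count of 2. Windows of 5 Mb took regions by midpoint and needed 20 tested regions. Chromosome levels were compared by exact permutation of lines.

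Named regions came from the called regions whose signal reached the median and whose groups did not overlap: the 6 largest and 6 smallest fold changes in rounds 2 and 3, and the 4 largest and 4 smallest in Met3 against Met1. To these were added the 3 regions of highest mean CPM and 2 strong regions nearest the chromosome's median fold change. The regions, windows and rules were chosen with earlier results of these data known.

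The scripts were tested on simulated data. Alternatives were DESeq2 1.42.0, total counts, other filters, fits of only the groups compared, a replicate block and leaving lines out. Replicate numbers are shared among groups, but no label says that they pair lines.

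No 2 libraries were identical, and the highest correlation within a group was 0.929. Library totals of 285633 to 5916109 counts set the precision of each value.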

Additional observations from a re-analysis of the deposited data

Results flagged for a closer look

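At 5 to 10 Mb, Primary3 replicate 2 was at -0.9065 on the log2 scale, far from the other 5 primary lines, which ran from -0.3839 to -0.1133. The same line stood apart at 95 to 100 Mb, at -0.1714 against -0.036 to 0.0346 in the others, and it is the shallowest library. At 60 to 65 Mb, Met3 replicate 1 was at -0.2887, below the other 8 metastasis lines, which ran from -0.0207 to 0.2042. These are 3 of 46 sets of lines examined by Dixon's test, and chance flags about 1 in 20.

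The window at 45 to 50 Mb differed between rounds. The difference between metastasis and primary lines in summed counts was -0.5154 (log2) in round 3 relative to round 2, and -0.5087 without the 2 shallowest libraries, where it was no longer called (edgeR adjusted p = 0.1085).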

How the results depend on the processing

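The higher level of chromosome 13 in metastasis lines of rounds 2 and 3 ran from 0.2221 to 0.253 with 1 line left out, and 19 to 22 windows were higher. Called regions ran from 331 to 485 (rounds 2 and 3), 62 to 184 (round 2), 80 to 180 (round 3), 77 to 179 (Met3 against Met1), 17 to 114 (Met2 against Met1) and 0 to 5 (Met3 against Met2). Fits limited to the compared groups gave 77 regions in round 2, 1 in Met2 against Met1 and 1 in Primary3 against Primary2. DESeq2 called 84 in Met2 against Met1, 1 in the round difference, 3 in Met3 against Met2 and 3 in Primary3 against Primary2.

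With 1 line left out, Met1 minus later metastasis lines ran from -0.0009 to 0.0607, Met3 minus Met2 from -0.0327 to 0.0269, Primary3 minus Primary2 from 0.0223 to 0.0643 and the round difference from -0.0703 to -0.0049. Among regions of top signal the first turned to -0.0017 and Met3 minus Met2 to 0.0077, and Met3 minus Met2 was 0.0056 by share of counts. The cause was not tested. Met3 minus Met2 was also 0.005 without Met2 replicate 2.

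Met3 against Met1 called 1 to 3 windows with 1 line left out and 1 with 10 Mb windows. The alternatives for the round difference and Met3 against Met2 windows were chosen after seeing the data. Both called 0 to 1 windows with 1 line left out and 0 with 10 Mb windows, with a replicate block and without the 2 shallowest libraries; Met3 against Met2 also called 0 with total counts. Removing chromosome medians (202 calls in Met3 against Met1) and the window values without Primary3 replicate 2 were also added later.

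The replicate block gave 407 calls in rounds 2 and 3, 108 in round 2, 170 in round 3, 160 in Met3 against Met1 and 39 in Met2 against Met1. Same-numbered lines deviated together at r = -0.2135 to 0.1563 over 30 pairs, and 2 of 15 lines correlated best with their own number. With 3 lines per group, these values cannot decide whether the numbers pair lines. Of 452 alternative values of named regions, 434 were counted as unchanged, 17 lost the call, 1 gained it and 0 reversed a called region. A missing adjusted p, or a turn of direction in a region not called, would count as unchanged.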
